A study of Mus musculus with 20 samples.

Results

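The effect of doxorubicin (DOXO) on the left ventricle of mice that received folic acid (FA) was described by comparing 6 FA-DOXO arrays with 4 FA-sham arrays, 10 of the 20 arrays of the series, chosen by their labels. All mice were male C57BL/6 mice with a labelled age of 2 months. Dosing with FA (10 mg per day) began 7 days ahead of DOXO. FA-DOXO mice received a single dose of 20 mg/kg DOXO, FA-sham mice received none, and the left ventricle was taken at day 10. The other 10 arrays came from mice given placebo instead of FA (4 sham and 6 DOXO). They served to estimate the spread of each gene, and the effect of DOXO without FA is given beside the values where it bears on them. Each array reports 34760 transcript clusters, each summarising the probes along a transcribed locus, as log2 signals. In all, 21640 clusters carry 1 gene symbol, 1321 carry several and 11799 are unnamed here. The tissue is a whole piece of ventricle at a single day, so that fewer cells of a type and less RNA per cell cannot be told apart. The labels number the arrays within a group without saying which animal each came from, so the p-values measure only the spread between these arrays, which may be partly technical.

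DOXO is an anthracycline used against tumours. It poisons topoisomerase II, cycles with iron to form reactive oxygen, and damages the heart muscle in a dose-dependent way. Metallothioneins are small, cysteine-rich proteins that bind zinc and copper and scavenge radicals, and their genes are switched on by metals through the factor Mtf1 and by stress hormones. A stressed ventricle of the mouse typically turns back to genes of the fetal heart, such as the beta myosin heavy chain and the natriuretic peptides. FA is a B vitamin of one-carbon metabolism that was studied here as a protection of the heart.

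With FA, the signal of Mt2, a metallothionein, was 8.08-fold higher in FA-DOXO than in FA-sham mice in the fit that takes the spread of each array into account. A cluster of the adult beta-globin genes fell 10.2-fold in the same fit. These were the only clusters with gene symbols past a Benjamini-Hochberg adjusted p of 0.05, in that fit alone. Pdk4, Myh7, Cd63, Sqstm1 and Gabarapl1 were also higher at the weaker unadjusted threshold of 0.01, again in that fit alone, where the share of all clusters called was close to the share that this threshold passes by itself. Lcn2, Serpina3n, Nppa, Nppb, Acta1, Adam4, the stefins and the NO synthases passed no threshold for the effect of DOXO under FA.

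The promoter of Mt2 is shown with that of its neighbour Mt1 because Mt2 was the only cluster with exactly 1 gene symbol past adjustment and Mt1 did not pass. Both are the 250 bases before the RefSeq start of the gene (GRCm38.p6, plus strand), in lower case with each match to the core of the metal response element (TGCNCNC, on either strand) in capitals. Mt2 lies at chr8:94172368-94172617 and Mt1 at chr8:94178839-94179088.
Mt2: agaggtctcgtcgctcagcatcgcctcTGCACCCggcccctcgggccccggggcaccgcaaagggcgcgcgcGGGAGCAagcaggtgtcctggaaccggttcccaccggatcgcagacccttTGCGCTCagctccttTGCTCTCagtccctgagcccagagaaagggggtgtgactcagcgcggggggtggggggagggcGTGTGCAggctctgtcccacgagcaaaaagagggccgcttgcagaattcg
Mt1: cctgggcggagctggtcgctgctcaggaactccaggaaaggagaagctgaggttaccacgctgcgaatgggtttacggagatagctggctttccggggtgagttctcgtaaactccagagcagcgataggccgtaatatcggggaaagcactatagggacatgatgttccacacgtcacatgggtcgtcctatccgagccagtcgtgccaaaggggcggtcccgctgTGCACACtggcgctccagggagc
The Mt2 window holds 5 matches and the Mt1 window 1. Of 27025 promoters of the same length, 43.8% held at least 1 match and 4.61% held 3 or more. Of 6 other motifs searched on both strands, the Mt2 window held 1 match to the AP-1 motif (TGANTCA, in 6.87% of promoters) and 1 to the C/EBP motif (TTGCNNAA, in 9.55%), both outside the capitals. It held none to those of the glucocorticoid receptor (TGTTCT, 16.2%), STAT factors (TTCNNNGAA, 7.18%), the E-box (CACGTG, 6.05%) or heat shock factors (GAANNTTC, 6.78%), and the Mt1 window held none of the 6. Of 32 genes looked up, 24 had a promoter in the table, and Stfa2 and Stfa3, which passed no threshold, also held 3 matches to the metal response core each. A match describes the letters only, and bases outside the windows, such as those past the RefSeq start, were not searched. The counts therefore do not compare all such elements of Mt2 and Mt1.

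Signals scattered more on some arrays than on others, and this spread was used as a covariate. The SD of the log2 signals of an array averaged 0.957 ± 0.123 (SD, n = 4) over the FA-sham arrays. It averaged 1.04 ± 0.185 (SD, n = 6) over the FA-DOXO arrays. It ran from 0.877 to 1.14 and from 0.863 to 1.34, so that the groups overlapped, and the difference of 0.0796 was within the spread (two-sided exact permutation test, p = 0.438). In the placebo groups the order was the other way round, with 1.27 in sham and 1.13 in DOXO mice. FA-sham array 4 and FA-DOXO arrays 5 and 6 had an SD above 1.1 and are called wide arrays, and the other 3 FA-sham and 4 FA-DOXO arrays are called narrow. This limit was set after the data had been seen.

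**Figure D1:**
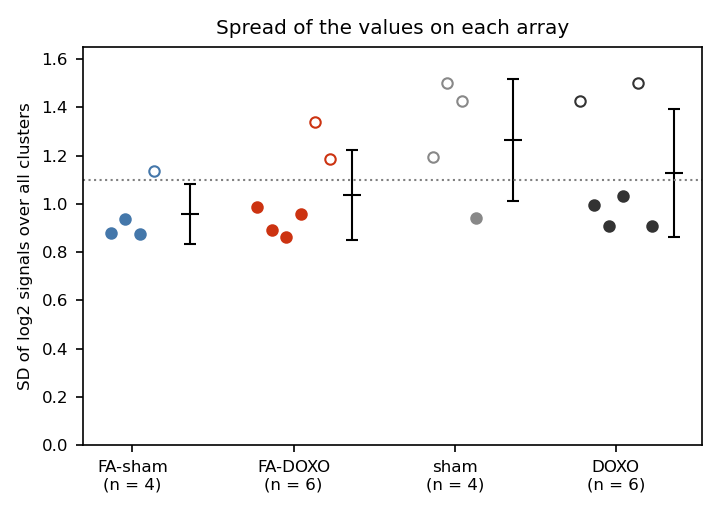
SD of the log2 signals over all clusters (vertical axis, log2 units) for each of the 20 arrays by group. Filled points are narrow and open points wide arrays, divided by the dotted line at 1.1, and bars show the group mean ± SD. With FA, 1 of 4 FA-sham and 2 of 6 FA-DOXO arrays were wide.

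Markers of the labelled tissue varied with the spread. Myh6, which encodes the main (alpha) heavy chain of adult mouse myosin, was at log2 signals of 7.26, 7.15, 6.98 and 9.69 in FA-sham arrays 1 to 4 and at 6.90, 7.72 and 10.84 (lowest, median and highest) in the 6 FA-DOXO arrays. The high values were those of the wide arrays. On the narrow arrays Myh6 lay between the 70.3 and 92.1 percentile of the array, against 97.5 to 98.8 on the wide ones. Tnnt2, cardiac troponin T, was at or above the 98 percentile on all 10 arrays and Myl2, the ventricular myosin light chain, at or above the 95.5 percentile. Cdh5, the cadherin of endothelial junctions, lay between the 29.5 and 52.1 percentile on the narrow arrays and so was not above the bulk of clusters there, against 87.5 to 93.9 on the wide ones. Pdgfra, a fibroblast receptor, lay between the 62.6 and 81.7 percentile. Whether the narrow arrays differ in cell makeup or only in the scale of their signals was not tested.

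Across all clusters, few differences passed. Without a covariate, limma called 82 clusters higher and 11 lower in FA-DOXO than in FA-sham mice at an unadjusted p of 0.01, which is 0.236% and 0.0316% of the clusters tested. Only 12 of these 93 carry 1 gene symbol. The 93 are 0.268% of the clusters tested, against the 1% that this threshold lets pass where no cluster differs. Of the 82 higher clusters, 68 had mean signals below the medians of the arrays in both groups. After Benjamini-Hochberg adjustment 1 cluster passed (0.00288% of clusters, limma adjusted p = 0.0111). It is unnamed here (cluster 10593058), and its signal rose from 4.16 ± 0.0766 (SD, n = 4) to 5.13 ± 0.148 (SD, n = 6). With the covariate, 210 clusters (0.604%) were called higher and 161 (0.463%) lower, 142 of them with 1 gene symbol. Together these 371 clusters are 1.07% of those tested, against the 1% that an unadjusted p of 0.01 lets pass where no cluster differs, so a single cluster at this threshold is weak evidence. Another scaling moved the split between directions, to 111 higher and 87 lower without and 272 and 346 with the covariate after quantile normalization, and to 266 and 114 with the covariate after median centring. All 93 clusters called without the covariate were among the 371, with the same direction. After adjustment 8 clusters were higher (0.023%) and 1 lower (0.00288%).

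The ranges of both groups did not overlap in 129 clusters that were all higher (0.371% of clusters) and in 152 that were all lower (0.437%). The lower ones were small differences, with a median of 0.24 on the log2 scale against 0.37 for the higher ones. A log2 difference above 1 was reached by 8 of the 129 higher and 6 of the 152 lower clusters.

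Mt2 was at log2 signals of 7.00, 7.39, 7.63 and 8.57 in FA-sham arrays 1 to 4 and at 8.64, 11.28 and 12.73 (lowest, median and highest) in the 6 FA-DOXO arrays. Every FA-DOXO array lay above every FA-sham array, although the lowest, FA-DOXO array 3 at 8.64, was close to FA-sham array 4 at 8.57. The log2 difference was 3.38 (SE 0.75) without the covariate, where the unadjusted p of 0.000246 did not survive adjustment (limma adjusted p = 0.776). In the fit with the array SD it was 3.01 (SE 0.46, limma adjusted p = 0.0285). It was much the same size within the narrow arrays, at 3.34, and within the wide ones, at 3.16. The unadjusted p stayed under 0.01 in all 20 alternatives to the fit with the array SD, whereas the adjusted call held in 9 of them. The adjusted p ran from 0.00223 to 0.264 over these alternatives, and the call was lost without any single FA-sham array (adjusted p = 0.125, 0.144, 0.0869 and 0.102 for arrays 1 to 4) and without FA-DOXO array 2, 4 or 5 (adjusted p = 0.0538, 0.0631 and 0.0838). It was also lost among clusters above the median signal (limma adjusted p = 0.0581), among those with 1 gene symbol (0.0619), with the interquartile range in place of the SD (0.0915) and with only the 10 arrays compared (0.264).

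Mt1, the neighbouring metallothionein gene, was at 7.89, 7.97, 7.62 and 8.77 in the FA-sham arrays and at 7.92, 9.18 and 10.68 (lowest, median and highest) in the FA-DOXO arrays, so that the groups overlapped. Its log2 difference was 1.00 without and 0.62 (SE 0.26) with the array SD, and it did not pass (unadjusted p = 0.0255, limma). Mt1 was chosen after its values had been seen. Of the 8 measured genes in the list of metallothioneins and zinc transporters, Mt2 was the only one called in either fit. Over all clusters, 0.236% were called higher without and 0.604% with the array SD. The median log2 difference of the list was -0.01 without and 0.02 with the array SD, beside -0.04 and -0.02 over all clusters. Mt3, the metallothionein best known from the brain, was at -0.01 and Slc30a1, a zinc exporter, at 0.07 with the array SD.

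The globin genes, whose products carry oxygen in red cells, gave the lower signals of the comparison. Because each of the 4 adult globin clusters is annotated to several near-identical genes, no single gene can be named, and these clusters were chosen after their values had been seen. The first beta-globin cluster (10566258, annotated to Hbb-bt, Hbb-bs, Hbb-b2 and Hbb-b1) was at 7.78, 10.98, 9.76 and 11.75 in FA-sham arrays 1 to 4. In the 6 FA-DOXO arrays it was at 6.59, 6.85 and 6.91 (lowest, median and highest), which is near the medians of the arrays, at 6.43 to 6.66. All FA-DOXO arrays lay below all FA-sham arrays and close together, while the FA-sham arrays spread widely. Without the covariate it differed by -3.26 on the log2 scale (SE 0.55, limma adjusted p = 0.122), and by -3.36 (SE 0.53, limma adjusted p = 0.0343) with the array SD. It was -2.63 within the narrow and -5.07 within the wide arrays. The unadjusted p stayed under 0.01 in all 19 alternatives to the second fit and the adjusted call held in 6. The adjusted p ran from 0.000492 to 0.264, and the call was lost without FA-sham array 2, 3 or 4 (adjusted p = 0.181, 0.159 and 0.163) and without any single FA-DOXO array (adjusted p = 0.063 to 0.0919). It was also lost among clusters above the median signal (limma adjusted p = 0.0581), with the interquartile range (0.0695), with the replicate block (0.156) and with only the 10 arrays compared (0.264).

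The second beta-globin cluster (10566254) was at 5.81, 6.91, 6.00 and 7.34 in the FA-sham and at 5.07, 5.41 and 5.60 (lowest, median and highest) in the FA-DOXO arrays, again with no overlap. Its log2 difference with the array SD was -1.15 (SE 0.31, unadjusted p = 0.00147, limma), and without FA-sham array 4 the p was 0.014. The alpha-globin cluster 10375058 was at 7.96, 8.68, 8.20 and 11.51 in the FA-sham and at 7.66, 7.71 and 7.74 in the FA-DOXO arrays. Its log2 difference with the array SD was -1.60 (SE 0.53, unadjusted p = 0.00758, limma), at -0.57 within the narrow and -3.83 within the wide arrays, and without FA-sham array 4 the p was 0.0759. In limma it was also lost without FA-sham array 2 (unadjusted p = 0.0103) and without FA-DOXO array 1, 4, 5 or 6 (unadjusted p = 0.0106, 0.0102, 0.0164 and 0.0145). The alpha-globin cluster 10375051 was at -1.64 (SE 0.62) and did not pass. Of 5 other measured genes of the erythroid list, none was called. Alas2, which starts haem synthesis in erythroblasts and was chosen after its values had been seen, was at -0.32 (SE 0.14) with the array SD. In that fit Slc4a1, the chloride-bicarbonate exchanger band 3, was at -0.04 and Epb42, a protein of the membrane skeleton, at -0.06. Over these 5 the median was -0.13 without the array SD, with 0 above 0, and -0.04 with it, with 2 above 0 (Bpgm and Hemgn). The mean log2 signal of these 5 ran from 6.59 to 6.76 in FA-sham and from 6.19 to 6.67 in FA-DOXO arrays. Whether the amount of blood left in the tissue had a part in the globin signals was not tested.

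**Figure D2:**
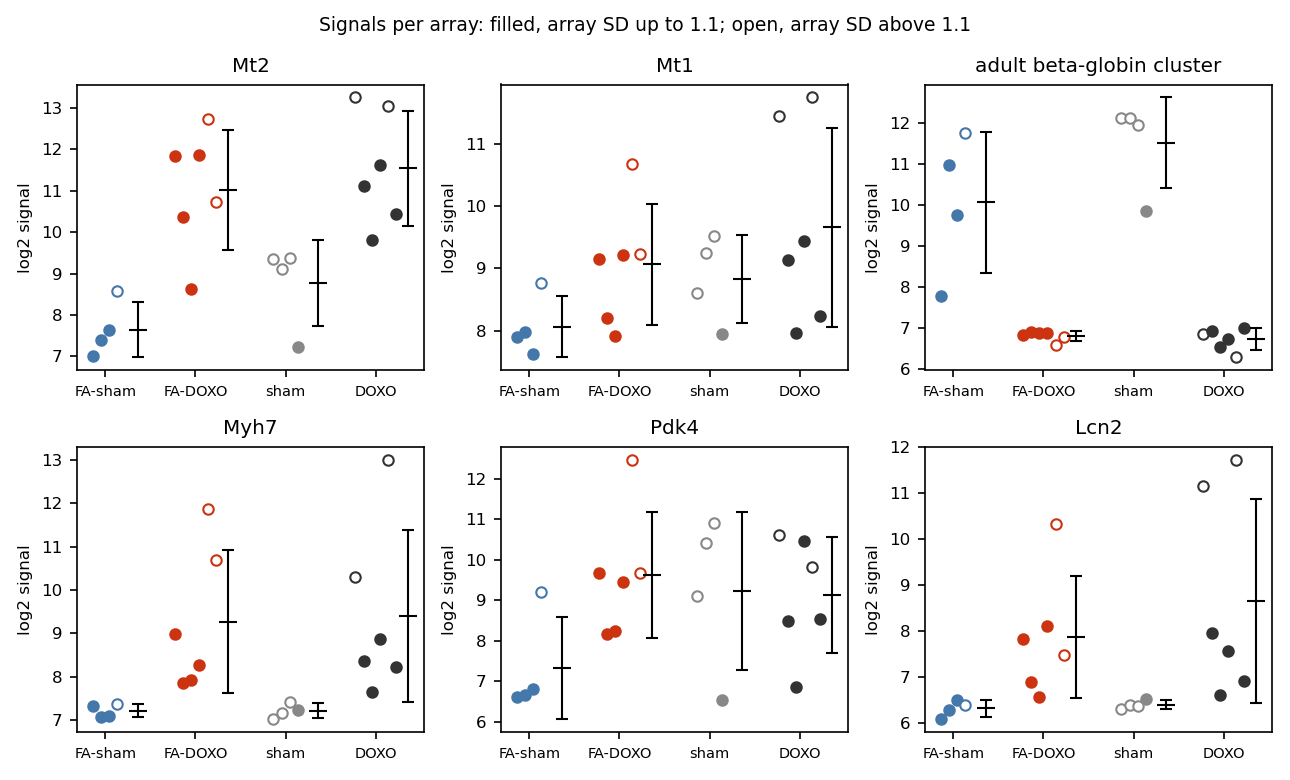
Log2 signals (vertical axes) of Mt2, Mt1, the adult beta-globin cluster 10566258, Myh7, Pdk4 and Lcn2 on each array, for FA-sham (n = 4), FA-DOXO (n = 6), sham (n = 4) and DOXO (n = 6). Filled points are narrow and open points wide arrays, and bars show the group mean ± SD. FA-DOXO arrays reach from 8.64 to 12.73 for Mt2 and stay between 6.59 and 6.91 for the globin cluster, without overlap with FA-sham, whereas Pdk4 and Mt1 overlap.

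Of the contractile genes, Myh7, the beta myosin heavy chain of the fetal and stressed mouse ventricle, was higher in FA-DOXO mice. It was at 7.33, 7.07, 7.08 and 7.36 in the FA-sham arrays and at 7.86, 8.63 and 11.87 (lowest, median and highest) in the FA-DOXO arrays. Every FA-DOXO array lay above every FA-sham array, and both wide FA-DOXO arrays, at 11.87 and 10.70, stood above the rest. The log2 difference was 2.06 (SE 0.87, unadjusted p = 0.0288) without and 1.64 (SE 0.54, unadjusted p = 0.00682, limma adjusted p = 0.882) with the array SD. Within the narrow arrays it was 1.1 and within the wide ones 3.93. In limma the call was lost without FA-sham array 2 (unadjusted p = 0.0151) or 4 (unadjusted p = 0.0376) and without FA-DOXO array 1 (unadjusted p = 0.0109), 5 (unadjusted p = 0.015) or 6 (unadjusted p = 0.0146). Myh6, its adult counterpart, was at 0.77 (SE 1.11) without and 0.12 (SE 0.32) with the array SD and did not pass. Of 33 measured genes of the sarcomere, Z disc and costamere, Myh7 was the only one called, in the fit with the array SD. That fit called 0.604% of all clusters higher. The list had a median log2 difference of 0.69 without and 0.12 with the covariate, and 28 and 23 of its genes were above 0. Over all 34760 clusters, 14373 and 15276 were above 0.

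Of the other genes of the fetal programme, none was called. Nppa, the atrial natriuretic peptide, was at 9.16, 9.25, 8.19 and 10.71 in the FA-sham and at 7.85, 9.88 and 11.53 (lowest, median and highest) in the FA-DOXO arrays, with a log2 difference of 0.55 (SE 0.74) without and 0.18 (SE 0.43) with the array SD. Nppb, the B-type natriuretic peptide, was at 8.89, 9.54, 9.02 and 10.41 in the FA-sham and at 8.38, 9.89 and 11.14 in the FA-DOXO arrays, with differences of 0.36 (SE 0.57) and 0.06 (SE 0.31). Both peptides overlapped widely between the groups. Acta1, skeletal alpha-actin, was at 6.84, 6.73, 6.63 and 9.47 in the FA-sham and at 6.70, 6.82 and 8.48 in the FA-DOXO arrays, so that its highest value was that of the wide FA-sham array. Its difference was -0.18 (SE 0.64) and -0.52 (SE 0.30). These SEs allow changes of either sign for all 3 genes.

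In energy metabolism, Pdk4, the kinase that turns off pyruvate dehydrogenase and so spares glucose in favour of fatty acids, was at 6.61, 6.65, 6.79 and 9.20 in FA-sham arrays 1 to 4. In FA-DOXO arrays it was at 8.17, 9.57 and 12.47 (lowest, median and highest), and 4 of 6 lay above every FA-sham array. The log2 difference was 2.30 (SE 0.94, unadjusted p = 0.0238) without and 1.83 (SE 0.54, unadjusted p = 0.00316, limma adjusted p = 0.743) with the array SD. It was 2.20 within the narrow and 1.87 within the wide arrays, and without FA-sham array 2 the p was 0.013. Among 37 measured genes of fatty acid uptake and oxidation, including PPAR targets, Pdk4 was the only one called. The fit with the array SD called 0.604% of all clusters higher. The median difference of that list was 0.68 without and 0.28 with the array SD, with 35 and 31 of 37 genes above 0. Over all 34760 clusters, 14373 and 15276 were above 0. Angptl4, a PPAR target that inhibits lipoprotein lipase, was at 0.46 (SE 0.24, unadjusted p = 0.0706, limma).

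Lists of the respiratory chain had smaller median differences in the fit with the array SD. The median log2 difference was 0.58 over 34 genes of complex I and 0.62 over 36 genes of complexes II to V without the covariate, with 33 and 32 genes above 0, and 0.19 and 0.24 with it, with 28 and 26 genes above 0. Within the narrow arrays alone the medians were 0.42 and 0.51, and within the wide ones 0.27 and 0.34. None of these 70 genes was called in either fit. Glycolysis, pyruvate entry and the TCA cycle (29 genes) went from 0.59 to 0.05, and antioxidant and glutathione enzymes (29 genes) from 0.64 to 0.14, again with no gene called. The list of 14 cardiomyocyte markers went from 0.66 to 0.12, with a mean level that ran from 7.90 to 10.95 over FA-sham and from 7.99 to 11.50 over FA-DOXO arrays. Over all clusters the medians were -0.04 and -0.02, with 14373 and 15276 of 34760 above 0. Within the narrow arrays glycolysis and the TCA cycle were at 0.29, antioxidant enzymes at 0.33, cardiomyocyte markers at 0.37 and all clusters at -0.01. In the same order the wide arrays gave 0.32, 0.46, 0.32 and -0.09.

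Among genes of protein and organelle turnover, Sqstm1, the autophagy receptor p62, was at 7.03, 7.17, 6.81 and 9.48 in the FA-sham and at 7.16, 8.88 and 11.55 (lowest, median and highest) in the FA-DOXO arrays, with wide overlap. Its log2 difference was 1.35 (SE 1.06, unadjusted p = 0.219) without and 0.72 (SE 0.25, unadjusted p = 0.00974, limma adjusted p = 0.922) with the array SD. Gabarapl1, which builds the membrane of autophagosomes, was at 6.75, 6.64, 6.50 and 8.52 and at 6.80, 7.86 and 10.38, with differences of 1.06 (SE 0.81) and 0.58 (SE 0.20, unadjusted p = 0.00942, limma). Both limma calls sat just under the threshold and were lost in 12 and 11 of 20 alternatives, among them the omission of FA-sham array 1, 2 or 3 or of FA-DOXO array 1, 4, 5 or 6 (unadjusted p = 0.0153 to 0.0355 for Sqstm1 and 0.0132 to 0.0426 for Gabarapl1). These 2 were the called genes among 27 of ubiquitin-driven atrophy, autophagy and the lysosome. With the array SD 0.604% of all clusters were called higher. The median of the list went from 0.43 without to 0.10 with the array SD. Trim63, the muscle ubiquitin ligase MuRF1, was at 0.23 (SE 0.17) and Fbxo32, the ligase atrogin-1, at 0.07 (SE 0.26) with the array SD. Cd63, a tetraspanin of late endosomes and exosomes, was at 5.93, 6.02, 6.10 and 7.92 and at 6.40, 8.01 and 9.78, with a log2 difference of 1.48 (SE 0.77) without and 1.04 (SE 0.29, unadjusted p = 0.002, limma) with the array SD, and its call was lost only where the interquartile range replaced the SD (limma, unadjusted p = 0.0223).

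Other genes called higher are Iqca, AY036118, Platr25 and H2ac4. Iqca, a gene with an IQ calmodulin-binding motif, was at 6.23, 5.94, 6.36 and 5.96 in the FA-sham and at 6.57, 6.70 and 6.96 (lowest, median and highest) in the FA-DOXO arrays, without overlap. Its log2 difference was 0.61 (SE 0.17) without and 0.66 (SE 0.13) with the array SD, and the unadjusted p stayed under 0.01 in all 19 alternatives to the second fit (limma adjusted p = 0.176). AY036118, a transcript with no known product, differed by 0.89 (SE 0.25) and 0.81 (SE 0.22), and Platr25, a long non-coding RNA, by 0.35 (SE 0.12) and 0.36 (SE 0.11). H2ac4, a histone H2A gene and the only one called of 30 genes of the cell cycle, differed by 0.64 (SE 0.18) with the array SD, at 0.77 within the narrow and 0.09 within the wide arrays. Its limma call was lost without FA-sham array 2 (unadjusted p = 0.0117) or 3 (unadjusted p = 0.0112). Across all clusters, 0.604% were called higher with the array SD. The limma call of Platr25 was lost without FA-sham array 1, 3 or 4 (unadjusted p = 0.0248, 0.0184 and 0.0116) or FA-DOXO array 1 or 5 (unadjusted p = 0.0105 and 0.0107).

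Apart from the globin clusters, the clusters named as lower differed by less. Pilrb2, a receptor of myeloid cells, was at 6.24, 6.30, 6.54 and 6.16 in the FA-sham and at 5.71, 5.94 and 6.02 (lowest, median and highest) in the FA-DOXO arrays, without overlap, with a log2 difference of -0.41 (SE 0.12) without and -0.37 (SE 0.09) with the array SD. Among clusters with exactly 1 gene symbol it was the single one called lower without the covariate. In the fit with the covariate, Mc5r, a melanocortin receptor, fell by 0.37 (SE 0.07), Svs3b, a protein of the seminal vesicle, by 0.32 (SE 0.07), BC049715 by 0.31 (SE 0.06) and Synb, the placental fusion protein syncytin-B, by 0.31 (SE 0.08) on the log2 scale. Mc5r, Svs3b and Synb are known from tissues other than the heart, and their mean log2 signals in FA-sham mice were 6.59, 6.83 and 7.50. Mc5r, Svs3b, BC049715 and Synb all had their lowest signals on the 2 wide FA-DOXO arrays. Cldn34-ps, Rnu5g, an RNA of the spliceosome, and Lipt2, a mitochondrial enzyme of lipoic acid synthesis, fell by 0.36 (SE 0.09), 0.53 (SE 0.18) and 0.30 (SE 0.10). Rnu5g lost its limma call without FA-sham array 1, 2 or 3 or FA-DOXO array 2, 3, 4, 5 or 6 (unadjusted p = 0.0107 to 0.0339), and Lipt2 without FA-sham array 1 or 4 or FA-DOXO array 1, 2, 4 or 5 (unadjusted p = 0.0149 to 0.0781).

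Of the immune lists, a call was found only among 11 markers of T and NK cells, where 2 were called lower, beside 0.463% of all clusters. Gzmb, the granzyme of cytotoxic cells, fell by 0.24 (SE 0.06, unadjusted p = 0.00172, limma) with the array SD, and Cd3g, a chain of the T cell receptor complex, by 0.18 (SE 0.06, unadjusted p = 0.00756, limma). In the FA-DOXO arrays Gzmb was at 5.43, 5.91 and 6.06 (lowest, median and highest) and in the FA-sham arrays at 6.19, 6.25, 6.15 and 6.07. The groups did not overlap, all values lay below the array medians, and the lowest 2 were those of the wide FA-DOXO arrays. The limma call of Gzmb was lost without FA-sham array 4 (unadjusted p = 0.0111), and that of Cd3g without any single FA-sham array (unadjusted p = 0.0122 to 0.0278) or without FA-DOXO array 1, 2, 3 or 4 (unadjusted p = 0.0113 to 0.0244). All 11 markers were below 0, with a median of -0.19 without and -0.09 with the array SD, and the mean level of the list ran from 6.23 to 6.55 in FA-sham and from 5.84 to 6.38 in FA-DOXO arrays. The lists of 9 B cell markers (medians -0.20 and -0.09, with 0 and 1 above 0) and of 11 monocyte and dendritic cell markers (-0.22 and -0.11, with 0 and 1 above 0) lay at like values with no gene called. Without the covariate 0 of 7 mesothelial, 0 of 5 erythroid, 1 of 5 Schwann cell and 2 of 8 adipocyte markers were above 0. With the array SD these counts were 1, 2, 2 and 2. Of endothelial, fibroblast and smooth muscle markers 13 of 14, 6 of 9 and 9 of 11 were above 0 without it, and 4, 5 and 5 with it. Over all 34760 clusters 14373 were above 0 without and 15276 with the array SD. Of 14 neutrophil markers none was called, with medians of 0.03 without and 0.04 with the array SD and 8 above 0 in either fit. S100a8, the calcium-binding alarmin of neutrophils, chosen after its values had been seen, was at 6.43, 6.14, 6.37 and 5.99 in the FA-sham and at 6.58, 7.01 and 7.45 in the FA-DOXO arrays, all higher, with a log2 difference of 0.74 (SE 0.32, unadjusted p = 0.0304, limma). H2-Eb1, a class II antigen-presenting molecule and also chosen afterwards, was all lower, from 7.57 ± 0.21 (SD, n = 4) to 7.21 ± 0.21 (SD, n = 6), with -0.35 (SE 0.18, unadjusted p = 0.0678, limma). Lists of macrophage, B cell, fibroblast, endothelial, smooth muscle, adipocyte, mesothelial and Schwann cell markers held no called gene.

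The secreted stress proteins that the study followed did not pass. Lcn2, lipocalin-2, an iron-scavenging acute-phase protein, was at 6.08, 6.29, 6.50 and 6.40 in the FA-sham and at 6.57, 7.66 and 10.32 (lowest, median and highest) in the FA-DOXO arrays. All FA-DOXO arrays lay above all FA-sham arrays, although FA-DOXO array 3 at 6.57 was close to the highest FA-sham array at 6.50. Its log2 difference was 1.55 (SE 0.87, unadjusted p = 0.091) without and 1.14 (SE 0.56, unadjusted p = 0.0566, limma) with the array SD, at 1.06 within the narrow and 2.50 within the wide arrays. Serpina3n, a protease inhibitor of the acute phase, was at 6.97, 6.90, 6.75 and 7.01 and at 6.74, 7.98 and 10.38, with differences of 1.13 (SE 0.85) and 0.71 (SE 0.51). Its lowest FA-DOXO array lay below every FA-sham array and 4 of 6 lay above. The 20 measured acute-phase and secreted stress proteins had a median of -0.08 without and -0.03 with the array SD, and no call.

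Adam4, a membrane metalloprotease, was at 6.69, 6.83, 6.77 and 6.35 in the FA-sham and at 6.40, 6.63 and 6.84 in the FA-DOXO arrays, with a log2 difference of -0.05 (SE 0.15) without and 0.02 (SE 0.09) with the array SD. Of the stefins, small inhibitors of cysteine proteases, Stfa2 differed by 0.07 (SE 0.26) and 0.01 (SE 0.24), Stfa3 by -0.15 (SE 0.14) and -0.11 (SE 0.11), Csta1 by 0.05 (SE 0.16) and 0.09 (SE 0.14) and Cstb by 0.29 (SE 0.27) and 0.15 (SE 0.16), without and with the array SD. Of the NO synthases, the neuronal Nos1 differed by -0.11 (SE 0.18) and -0.01 (SE 0.08), the inducible Nos2 by -0.13 (SE 0.12) and -0.10 (SE 0.10) and the endothelial Nos3 by 0.04 (SE 0.26) and -0.06 (SE 0.20). Their signals lay between 6.31 and 7.26 on all 10 arrays, not far from the array medians. None of the 22 genes of NO synthesis and tetrahydrobiopterin, of 28 genes of folate, one-carbon and methionine metabolism, of 30 p53 targets and DNA damage genes or of 15 genes of topoisomerases and doxorubicin handling was called in either fit.

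Over the 45 lists, 2 held a gene called higher without the covariate, those of metallothioneins and of glucocorticoid-responsive genes, in both cases Mt2. With the array SD 7 lists held a gene called higher and 1 a gene called lower. Since several genes stand in more than 1 list, these 7 lists rest on 6 genes, Mt2, Myh7, Pdk4, Sqstm1, Gabarapl1 and H2ac4. The fit with the array SD called 0.604% of all clusters higher and 0.463% lower.

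**Figure D3:**
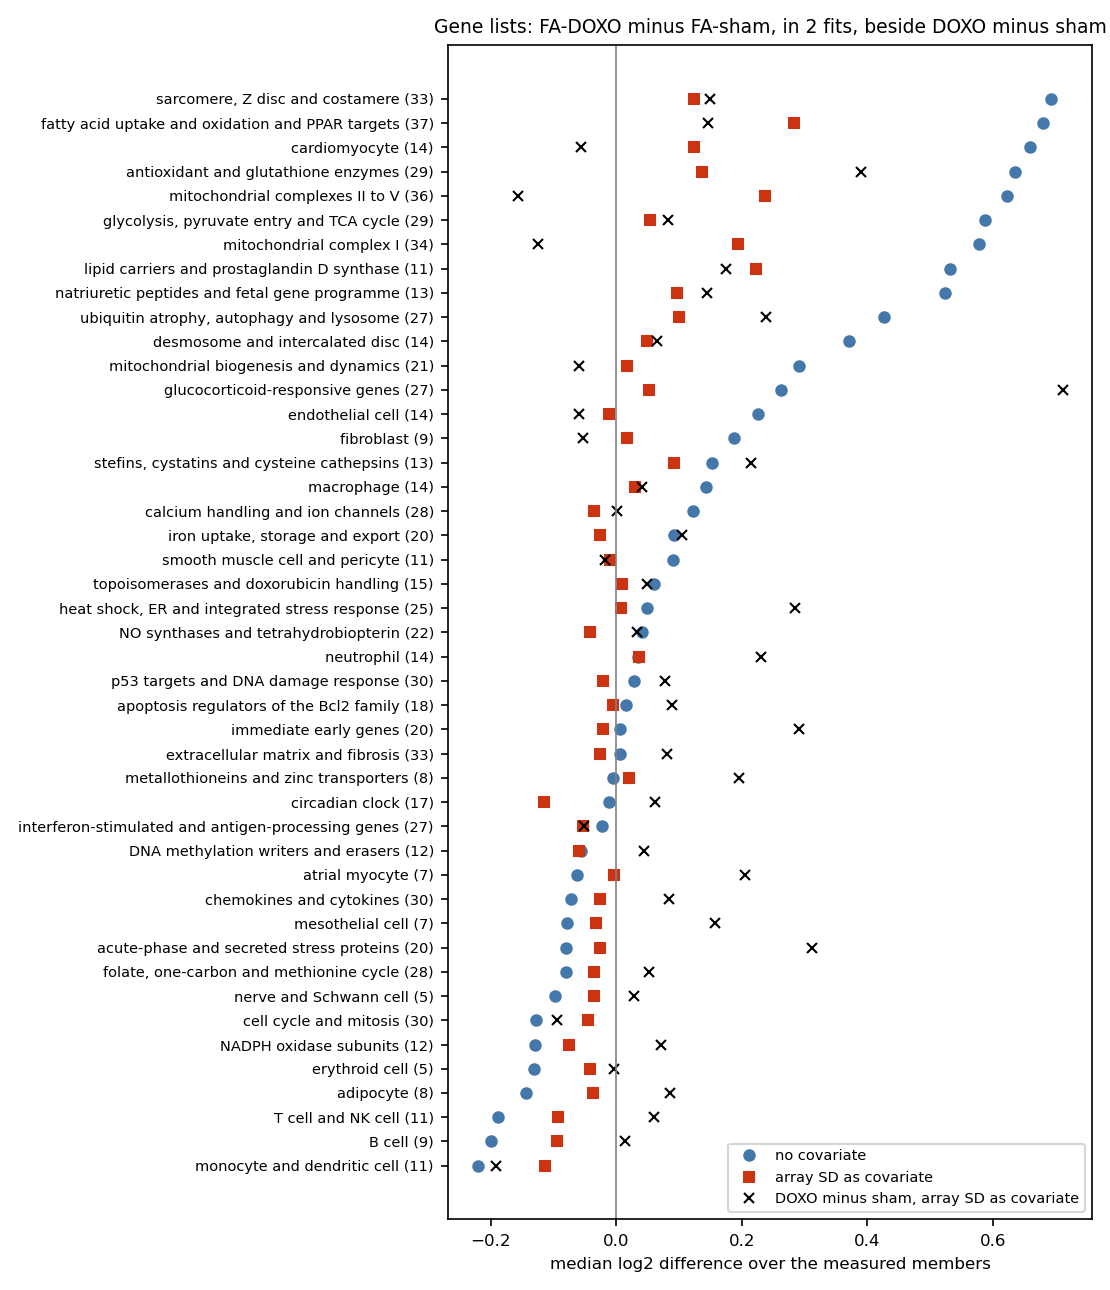
Median log2 difference over the measured members of 45 gene lists (number of members in parentheses, 5 to 37), FA-DOXO minus FA-sham without a covariate (circles) and with the array SD (squares), beside DOXO minus sham with the array SD (crosses). The lists of cardiomyocyte markers, the sarcomere, fatty acid oxidation, the TCA cycle and the respiratory complexes lie at 0.58 to 0.69 without the covariate and at 0.05 to 0.28 with it.

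The effect of DOXO under FA was set beside that under placebo, which rests on other arrays, and the difference of both was tested as an interaction. After adjustment no cluster passed, with a smallest limma adjusted p of 0.110 with the array SD and 0.570 without it. At an unadjusted p of 0.01, 128 clusters (0.368%) were above 0 and 490 (1.41%) below 0 with the array SD, and 72 and 89 without it (166 and 82 after median centring). At an unadjusted p of 0.05, 3000 clusters passed with and 1803 without the array SD. Without the covariate the count ran from 76 to 1707 when single arrays were left out, the highest without sham array 4.

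Mt2 differed by 3.01 under FA and by 3.42 under placebo with the array SD (interaction -0.40, SE 0.66, unadjusted p = 0.553, limma), and the beta-globin cluster 10566258 by -3.36 and -4.63 (interaction 1.28, SE 0.77, unadjusted p = 0.116, limma). Without the covariate the order for Mt2 was the other way round, at 3.38 under FA and 2.78 under placebo (interaction 0.60, SE 1.06). The SEs are wide, so that neither equal nor unequal effects are shown. Myh7 differed by 1.64 under FA and 2.92 under placebo (interaction -1.28, SE 0.78), and Pdk4 by 1.83 and 0.71 (interaction 1.12, SE 0.78). For Serpina3n the difference was 0.71 under FA against 2.84 under placebo (interaction -2.13, SE 0.73, unadjusted p = 0.00955, limma adjusted p = 0.538). For Lcn2 it was 1.14 against 2.97 (interaction -1.83, SE 0.81, unadjusted p = 0.037, limma) and for Mt1 0.62 against 1.49 (interaction -0.86, SE 0.37, unadjusted p = 0.0326, limma). Adam4 differed by 0.02 under FA and -0.46 under placebo (interaction 0.48, SE 0.13, unadjusted p = 0.00208, limma adjusted p = 0.535), and H2ac4 by 0.64 and -0.29 (interaction 0.92, SE 0.26, unadjusted p = 0.00244, limma adjusted p = 0.535). Svs3b (interaction -0.42, SE 0.10), Synb (-0.46, SE 0.11) and Cd3g (-0.38, SE 0.09) had unadjusted p of 0.000498, 0.000777 and 0.000499 (limma), with differences under placebo of 0.10, 0.15 and 0.19. None of these interactions passed after adjustment.

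For the genes of the preceding paragraph, no interaction without the covariate reached an unadjusted p of 0.01. That of Mt1 changed sign, to 0.17 (SE 0.95, with 1.00 under FA and 0.83 under placebo). The interaction was -0.98 (SE 1.20) for Serpina3n, -0.70 (SE 1.23) for Lcn2, -0.13 (SE 1.23) for Myh7 and 0.29 (SE 0.22) for Adam4, each closer to 0 than with the array SD. It was 2.41 (SE 1.32) for Pdk4, 0.77 (SE 0.29) for H2ac4, -0.72 (SE 0.28) for Svs3b, -0.90 (SE 0.40) for Synb and -0.68 (SE 0.28) for Cd3g.

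**Figure D4:**
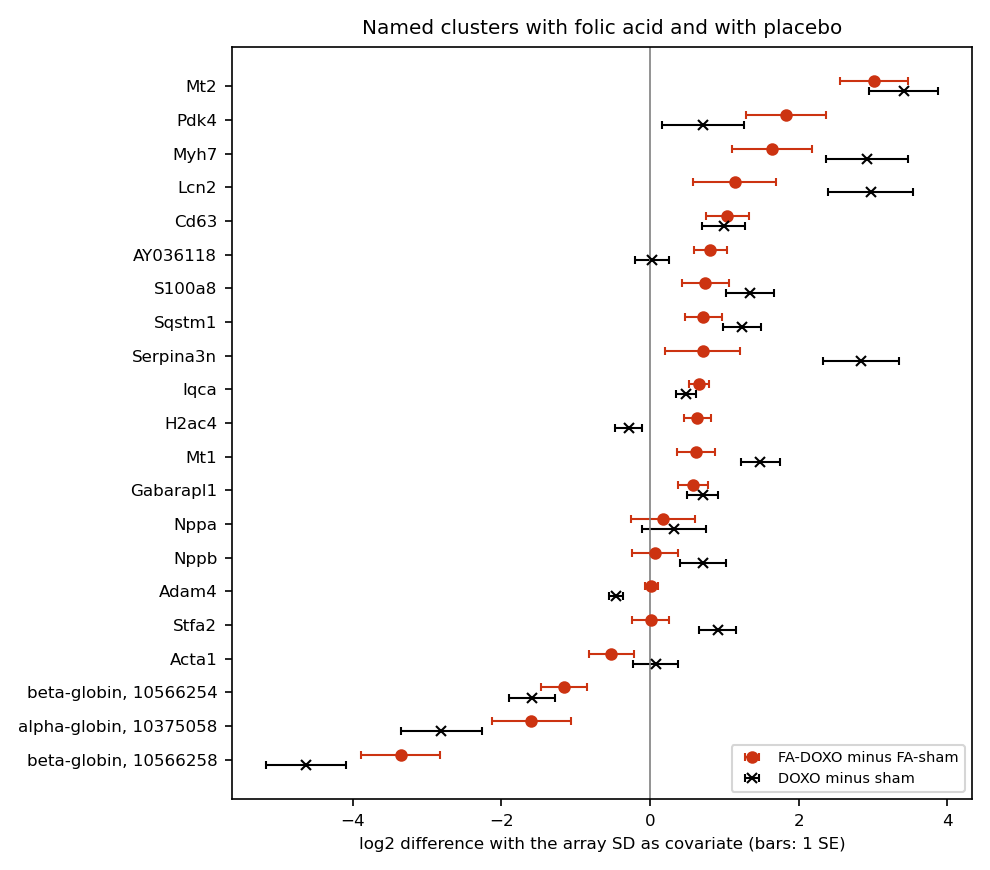
Log2 difference with the array SD as covariate (horizontal axis, bars 1 SE) of named clusters, FA-DOXO minus FA-sham (circles) beside DOXO minus sham (crosses). Mt2 lies at 3.01 and 3.42, Serpina3n at 0.71 and 2.84, and the beta-globin cluster 10566258 at -3.36 and -4.63.

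Glucocorticoid-responsive genes, which stress hormones switch on, had a median log2 difference of 0.05 under FA and 0.71 under placebo with the array SD (27 genes). The interaction was below 0 at an unadjusted p of 0.01 for 6 of them, Sgk1, Nfkbia, Errfi1, Glul, Fam107a and Sult1a1, which were chosen after their values had been seen, beside 1.41% of all clusters. These genes differed by -0.06 to 0.39 under FA and by 0.58 to 1.44 under placebo, and none of the interactions passed after adjustment. Without the covariate the medians were 0.26 and 0.34 and no gene of the list reached an unadjusted interaction p of 0.01, so that this contrast was seen only with the array SD. Acute-phase and secreted stress proteins had medians of -0.03 and 0.31 with the array SD. In that fit 3 of 20 genes, Serpina3n, Saa1 and Saa3, were below 0 in the interaction at an unadjusted p of 0.01. This stands beside 1.41% of all clusters. Without the covariate the medians were -0.08 and 0.37, and 1 gene was below 0 in the interaction at that threshold.

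Of the 210 clusters called higher under FA with the array SD, 70.5% also had a positive difference under placebo, against 59.2% of all 15276 clusters with a positive difference under FA. Of the 161 called lower, 37.9% were also negative under placebo, against 37.8% of all 19484 clusters with a negative difference. The effects under FA and under placebo share no array, but share the fitted slope on the array SD and the estimate of the spread.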

How the data were processed

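Total RNA of whole left ventricles was hybridised to Affymetrix Mouse Gene 1.0 ST arrays, 1 array per sample. The authors deposited log2 signals of 34760 transcript clusters, and the labels name R 2.14.2. As to background correction and normalization, the method is not given in the sources used here. Precision is limited by the number of arrays. Gene symbols came from the platform annotation. Of 935 entries in 45 gene lists, 858 matched a cluster.

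All 20 arrays were fitted with limma 3.58.1 (lmFit and eBayes, R 4.3.3) with 1 mean per group, once without a covariate and once with the centred SD of each array's signals. Differences were called at the unadjusted p of 0.01 of the study's methods and at a Benjamini-Hochberg adjusted p of 0.05 over all clusters. The script was tested on simulated data. Array SDs were compared with SciPy 1.17.1, by an exact permutation test.

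Named were clusters with 1 symbol: in each fit and direction the 8 largest called differences (each gene at its cluster of highest signal; predicted genes, olfactory and vomeronasal receptors, microRNAs and small nucleolar RNAs left out), up to 4 called members per list, the genes the study names and tissue markers. Members and lists were chosen with earlier results of these data known, some lists after an earlier analysis of these arrays, and none is independent evidence. Alternatives changed the filter, the clusters, the normalization, the centring, the moderation, array weights, the arrays fitted, the replicate block and the measure of array spread, or left out each array in turn.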

Additional observations from a re-analysis of the deposited data

Results flagged for a closer look

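Of 96 groups of arrays checked for a single array far from the rest, 10 (10.4%) had one. The limit used passes about 1 in 20 independent groups where no array differs. These groups read the same 10 arrays over and over, so their share is not a test against that rate. FA-sham array 4, a wide array, was the highest of its group for Pdk4 (9.20, the nearest array at 6.79), Cd63 (7.92, nearest 6.10), Sqstm1 (9.48, nearest 7.17), Gabarapl1 (8.52, nearest 6.75), Acta1 (9.47, nearest 6.84), Myh6 (9.69, nearest 7.26) and H2-Eb1 (7.88, nearest 7.49), and the lowest for BC049715 (7.04, nearest 7.47). FA-DOXO array 5, the widest of the 10 arrays, was the highest of its group for Pdk4 (12.47, nearest 9.68) and the lowest for H2-Eb1 (6.80, nearest 7.18). All values are log2 signals.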

How the results depend on the processing

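Of 26 named clusters called with the array SD, 13 kept an unadjusted p under 0.01 in every alternative and 13 lost it in 1 or more, and of 9 called without it 2 kept it; none of them changed sign. Without the covariate the 93 clusters at an unadjusted p of 0.01 became 11 above the median signal, 12 with 1 gene symbol, 198 after quantile normalization (111 higher and 87 lower), 1143 with array weights, 172 with only the 10 arrays compared, 371 with the array SD, 301 with array width as a block, 590 in narrow arrays alone and 53 in wide arrays alone, and 48 to 112 when single arrays were left out (lowest without FA-sham array 3). The 1 cluster past adjustment became 0 above the median signal, with 1 gene symbol, after median centring and with the replicate block, 65 with array weights, 9 with the array SD, 4 with array width as a block, and 0 to 3 when single arrays were left out. With the covariate the 371 clusters (210 higher and 161 lower) became 86 above the median signal, 174 with 1 gene symbol, 618 after quantile normalization (272 and 346), 824 with array weights, 635 with only the 10 arrays and 630 with the SD over unnamed clusters, and median centring gave 266 higher and 114 lower. The 9 past adjustment became 0 above the median signal, 0 with 1 gene symbol, 3 after quantile normalization, 20 with array weights, 2 with only the 10 arrays, 4 with the replicate block and 1 with the interquartile range, and 1 to 7 without single arrays. For the interaction, 161 clusters became 618 with the array SD, 248 after median centring and 34 above the median signal, and 76 to 1707 without single arrays. The filters test fewer clusters, and for the other changes the cause was not tested.

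The labels do not say that a replicate number marks a shared litter, batch or day. The deviations of same-numbered FA-sham and FA-DOXO arrays correlated with r = 0.251, 0.27, 0.707 and -0.536, so not every pair deviated together and the numbers were not taken as pairs; only FA-sham array 3 correlated best with its own number. With the replicate block, 71 clusters were called without the covariate, 341 with the array SD (241 higher and 100 lower) and 148 in the interaction.

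Some log2 differences that passed no test changed sign. Without the covariate, Acta1 was at 0.0355 in narrow arrays alone, Nppb at -0.111 after quantile normalization and Csta1 at -0.0411 in wide arrays alone. Adam4 was at 0.00541 after median centring, 0.00428 with the replicate block, 0.0191 with the array SD and 0.0683 in wide arrays alone, and Nos3 at -0.0061 with array weights, -0.111 with the block and -0.058 with the array SD. In the fit with the array SD, quantile normalization put Nppa at -0.0154, Nppb at -0.14 and Stfa2 at -0.00214, the 10 arrays alone put Nppa at -0.0534 and Nppb at -0.0563, and Adam4 was at -0.00325 with the interquartile range and -0.00715 with the SD over unnamed clusters. Leaving out single arrays gave, without the covariate, -0.439 to 0.509 for Acta1, -0.151 to 0.00767 for Adam4, -0.029 to 0.123 for Stfa2, -0.0851 to 0.209 for Csta1 and -0.0201 to 0.0726 for Nos3. With the covariate it gave -0.0701 to 0.461 for Nppa, -0.084 to 0.246 for Nppb, -0.0392 to 0.069 for Adam4, -0.154 to 0.0755 for Stfa2, -0.055 to 0.244 for Csta1, -0.0929 to 0.0256 for Nos1 and -0.0819 to 0.299 for Myh6.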

Other observations

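Trdn, which encodes triadin, a protein that anchors the calcium release channel of the sarcoplasmic reticulum, is read by 19 clusters. All 19 had a positive log2 difference in both fits, beside 14373 of 34760 clusters without and 15276 with the array SD. They read the same gene on the same arrays and are not independent. Of the 19, 1 was called higher without and 2 with the array SD, beside 0.236% and 0.604% of all clusters. Differences below are those with the array SD. Cluster 10362454 was at log2 signals of 3.87, 3.96, 3.77 and 4.30 in the FA-sham and at 4.38, 4.70 and 5.61 (lowest, median and highest) in the FA-DOXO arrays, all higher, with a difference of 0.76 (SE 0.16, unadjusted p = 0.000129, limma). Cluster 10362426 differed by 0.84 (SE 0.22). The Trdn cluster with the highest signal, 10362420, differed by 0.28 (SE 0.42) and did not pass. Whether the clusters of this gene differ from each other was not tested. All values of cluster 10362454 lay below the medians of the arrays.

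Rpl38, a protein of the large ribosomal subunit with near-identical copies in the genome, is read by 4 clusters. All 4 had a positive difference in both fits, and as readings of near-identical copies they are not independent. Cluster 10509560 was at 9.40, 10.00, 7.93 and 10.89 in the FA-sham and at 10.40, 11.53 and 12.42 (lowest, median and highest) in the FA-DOXO arrays, with a log2 difference of 1.66 (SE 0.45, unadjusted p = 0.00155, limma) with the array SD. The cluster with the highest signal, 10548976, differed by 0.78 (SE 0.35). Signals of the copies cannot be told apart on this array.

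Of the 9 clusters past adjustment with the array SD, 7 are unnamed here. All 7 were higher in every FA-DOXO than in every FA-sham array, beside 0.371% of all clusters. They were picked by the p-value of this same comparison, so the lack of overlap is no separate support. Their log2 differences were 0.49 to 1.42 and their mean FA-sham signals 3.95 to 5.29, below the medians of the arrays. Their differences under placebo were -0.46 to 0.58. The 1221 clusters of olfactory, vomeronasal and trace amine receptors, which the heart is not known for, had a median difference of -0.12 without and -0.02 with the array SD, with 4 called higher and 13 lower in the second fit, beside 0.604% and 0.463% of all clusters. All these groups were chosen after their values had been seen.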
